A study of Marmota monax with 7 samples.

Results

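Ribosomal proteins and translation factors were followed through a titration of woodchuck liver RNA on membrane arrays made for human genes. The members were all probes that the array's annotation assigns to a single symbol among RPL7A, RPL10A, RPL28, RPL32P18, EIF4A1 and EIF2B2, which gave 9 of the 5544 probes on the array, or 6 of the 3011 genes that have a probe with 1 symbol. EIF4A1 had 4 probes from 2 cDNA clone accessions, and each of the other 5 genes had 1 probe. The RNA was total RNA of adult liver from the woodchuck (Marmota monax), which the labels call normal. Amounts of 0.1, 0.25, 0.5, 1, 2, 5 and 10 µg went onto 1 array each, and all 7 arrays carried a single lot number. The labels name no treatment, strain or sex, and do not say whether the arrays shared a preparation or an animal, so array and amount cannot be told apart. The title of the series puts the question as one of RNA concentration when array and RNA belong to different species.

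The ribosome joins amino acids in the order that a messenger RNA prescribes, and its large and small subunits are built from ribosomal RNA and a set of ribosomal proteins. Initiation factors bring the small subunit to the messenger RNA, and elongation and release factors carry the chain forward and end it. Ribosomal protein messages are among the abundant transcripts of most tissues, and the liver makes large amounts of secreted protein. RPL7A, RPL10A and RPL28 encode proteins of the large subunit. RPL32P18 is named as a processed pseudogene of RPL32, another protein of that subunit. EIF4A1 is the RNA helicase of the cap-binding complex that unwinds the leader of a messenger RNA, and EIF2B2 is the beta subunit of eIF2B, which exchanges the guanine nucleotide on initiation factor eIF2. Ribosomal protein genes have many near-identical processed copies, so a probe may bind RNA of more than its named gene. A RefSeq table of woodchuck genes held 1 protein-coding gene each for the symbols RPL7A, RPL10A, RPL28, EIF4A1 and EIF2B2 and for RPL32, and 0 entries for RPL32P18.

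Array medians ran from 1629 to 16520 in units of the deposited intensity, with the higher of these at 5 µg and 16151.5 at 10 µg. The 1st percentile of each array, used here as a measure of background, ran from 1329 at 0.1 µg to 3782 at 5 µg. Summed signals lay between 12951278 and 1309231092. Probes of 9 hepatocyte genes had percentiles from 24.4 to 99.4 (median 73.4 over genes, each taken at its median over the arrays), with APOB, a structural protein of lipoprotein particles, at 99.4. The medians were 77.6 for 4 lymphocyte genes, 67.0 for 3 of stellate cells, 62.6 for 4 of endothelium, 58.7 for 3 of red cells, 51.9 for 5 of macrophages and 27.9 for 3 of bile duct, so these named probes did not set hepatocytes apart. ALB and TTR had no probe with a single symbol. In such bulk RNA, fewer cells of a type and less RNA per cell cannot be told apart. Every p-value measures only the scatter of 7 arrays about a line, since no amount was repeated, and limma borrows variance from probes that share these arrays. Percentiles of a probe within its array are given to show its distance from background and are not relative amounts of transcript.

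RPL10A, RPL28, RPL32P18 and 1 of the 4 EIF4A1 probes were the brighter members, at or above percentile 88.4 of the array at every amount of RNA, although RPL32P18 was only 1.34 times the array median at 0.1 µg. The RPL10A probe read 21329, 45221, 138307, 376435, 961252, 4565701 and 7262286 from 0.1 to 10 µg. It was higher at each larger amount and stayed between percentiles 98.9 and 99.6 of the array. The RPL28 probe read 3169, 6006, 11960, 26986, 67671, 971706 and 474504. It climbed to 5 µg and was lower at 10 µg than at 5 µg, while its percentile stayed between 92.3 and 94.5.

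The RPL32P18 probe read 2189, 3631, 8486, 17614, 40519, 274553 and 361837, higher at each larger amount. Its percentile was 88.4 at 0.1 µg and between 91.0 and 91.8 on the other 6 arrays. The brightest EIF4A1 probe, number 843 on the array, read 16735, 29341, 79327, 186143, 538842, 3433373 and 4193860. It also was higher at each larger amount, between percentiles 98.1 and 98.7.

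Among the members RPL7A behaved in another way from the other ribosomal protein probes. Its probe read 1762, 1571, 1920, 2094, 2562, 2392 and 4356 from 0.1 to 10 µg. It stood at percentile 69.3 on the array of 0.1 µg, at 16.5 and 17.2 at 0.25 and 0.5 µg, and at 10.0 or below from 1 µg upward. On the array of 5 µg it was the lowest of all 5544 probes. RPL31, a ribosomal protein gene outside the members, was similarly dim, at 1794 at 0.1 µg and 4194 at 10 µg. Its percentile ran between 3.39 and 73.0, with a median of 7.98.

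From 0.1 to 2 µg the remaining translation factor probes read between 0.785 and 2.85 times the array median. Some readings were close to background, with EIF2B2 at percentile 8.8 at 0.5 µg and EIF4A1 probe 3923 at 9.5 at 0.1 µg. EIF2B2 read 1563, 1856, 1801, 3810, 6196, 363515 and 28936, so that its value at 5 µg was far above those at 2 and 10 µg. EIF4A1 probe 3923 read 1425, 1666, 2847, 3097, 4357, 90137 and 27145, with its highest value at 5 µg as well. These single readings were not repeated on a further array.

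EIF4A1 probes 1545 and 1695 carry a common clone accession, different from that of probes 843 and 3923. Probe 1545 read 1618, 1989, 1880, 3195, 5032, 22451 and 18105, between 0.820 and 1.36 times the array median, and at percentile 13.8 at 0.5 µg. Probe 1695 read 1575, 2117, 2735, 3729, 11539, 30223 and 36928, above the median from 0.25 µg upward. Of the 9 probes, 4 were higher at each larger amount (RPL10A, RPL32P18, and EIF4A1 probes 843 and 1695), against 35.5% of all probes.

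**Figure D1:**
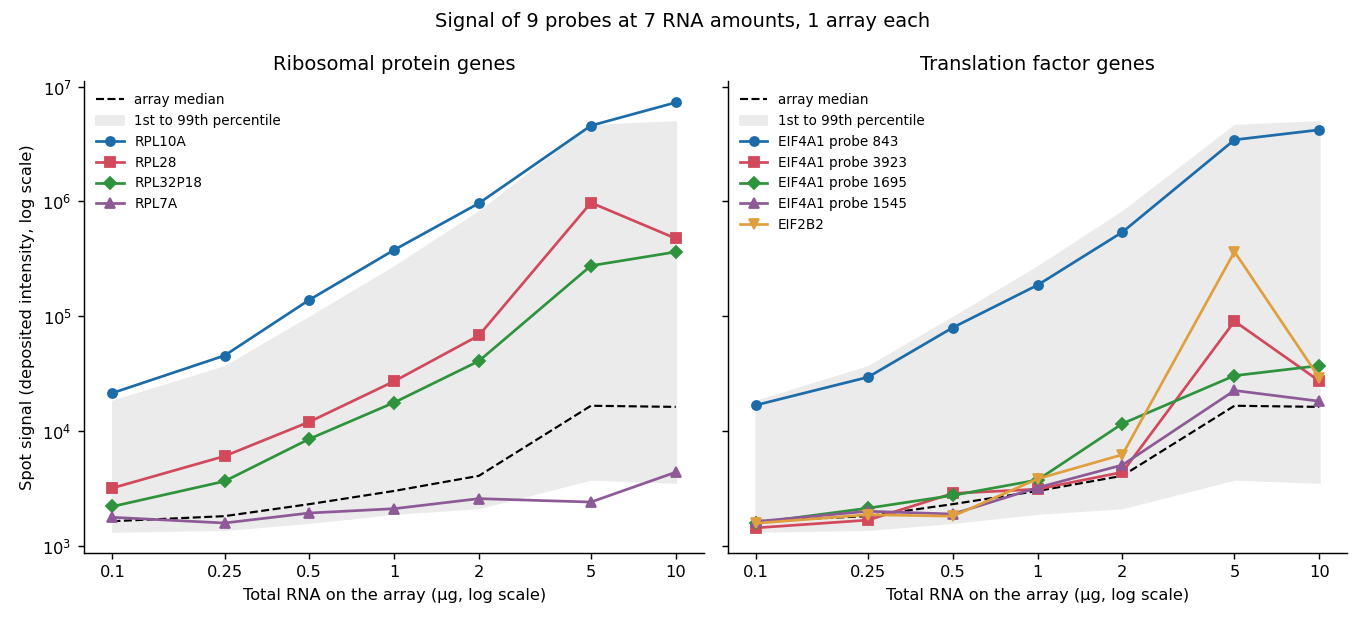
Deposited spot signal (y axis, log scale) against total RNA on the array in µg (x axis, log scale) for 4 ribosomal protein probes (left) and 5 translation factor probes (right), 1 array at each amount. The dashed line is the array median and the grey band runs from the 1st to the 99th percentile. RPL10A and EIF4A1 probe 843 run along the upper edge of the band, RPL7A near its lower edge from 1 µg upward, and EIF2B2 reaches 363515 at 5 µg.

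Without scaling, all 9 probes rose with the amount of RNA, as did 99.9% of all probes (limma, slope of log2 signal on log2 amount, Benjamini-Hochberg adjusted p under 0.05 over 5544 probes). A slope of 1 is signal in proportion to RNA. Among the ribosomal proteins the slope was 1.35 ± 0.08 (SE over 7 arrays) for RPL10A, 1.28 ± 0.12 for RPL28 and 1.21 ± 0.09 for RPL32P18. RPL7A had 0.18 ± 0.08 (limma adjusted p = 0.0343), against a median of 0.57 over all probes. The call for RPL7A was lost without the array of 0.25 µg (limma adjusted p = 0.112), 0.5 µg (0.0678), 1 µg (0.0569) or 10 µg (0.295). The 4 EIF4A1 probes had slopes of 1.32 ± 0.09 (probe 843), 0.82 ± 0.15 (3923), 0.77 ± 0.09 (1695) and 0.62 ± 0.10 (1545). EIF2B2 had 0.98 ± 0.22, which was 0.65 without the array of 5 µg.

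A net signal was also computed, as the signal minus the 1st percentile of its array, a choice of background that itself rose with the amount of RNA. The net signal of RPL10A was 20000 at 0.1 µg and 7258736 at 10 µg, a ratio of 363 where the RNA differed by a factor of 100. The same ratio was 256 for RPL28, 417 for RPL32P18, and 272 for EIF4A1 probe 843. For the dimmer probes it depended on the background chosen (5th percentile, 1st percentile or lowest signal), since their net signals at 0.1 µg were between 234 and 289 with the 1st percentile. It was between 107 and 173 for EIF4A1 probe 1695, between 42.8 and 59.1 for probe 1545 and between 85.2 and 139.6 for EIF2B2. EIF4A1 probe 3923 had a net signal of 96.0 at 0.1 µg, under the floor of 100 set for the fits, and 23595 at 10 µg. For RPL7A the net signal was 433, 194, 334, 192, 433, -1390 and 806 from 0.1 to 10 µg. Its value at 5 µg lay below the background and was set to the floor.

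Per µg of RNA, the 4 brighter probes gave more net signal at 10 than at 0.1 µg. So did 3 dimmer ones at 0.1 and 10 µg: EIF4A1 probes 1695 (2460 and 3338) and 3923 (960 and 2359.5), and EIF2B2 (2340 and 2539). EIF4A1 probe 1545 (2890 and 1455.5) and RPL7A (4330 and 80.6) gave less at 10 µg. RPL10A gave 200000 per µg at 0.1 µg, 175376 at 0.25 µg, 374533 at 1 µg, 912384 at 5 µg and 725874 at 10 µg. RPL28 gave 18400 at 0.1 µg, 18516 at 0.25 µg, 25084 at 1 µg, 193585 at 5 µg and 47095 at 10 µg. RPL32P18 went from 8600 at 0.1 µg and 9016 at 0.25 µg to 54154 at 5 µg and 35829 at 10 µg. Both RPL10A and EIF4A1 probe 843 gave less per µg at 0.25 than at 0.1 µg. EIF4A1 probe 843 gave 154060 at 0.1 µg, 111856 at 0.25 µg, 184241 at 1 µg, 685918 at 5 µg and 419031 at 10 µg. The median of all probes was highest at 0.1 µg, at 3000 per µg, and went to 1704 at 0.25 µg, 1087 at 1 µg, 2548 at 5 µg and 1260 at 10 µg. In 8 of the 9 probes the yield per µg was highest on the array of 5 µg, against 42.8% of all probes, and in RPL7A it was highest at 0.1 µg.

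**Figure D2:**
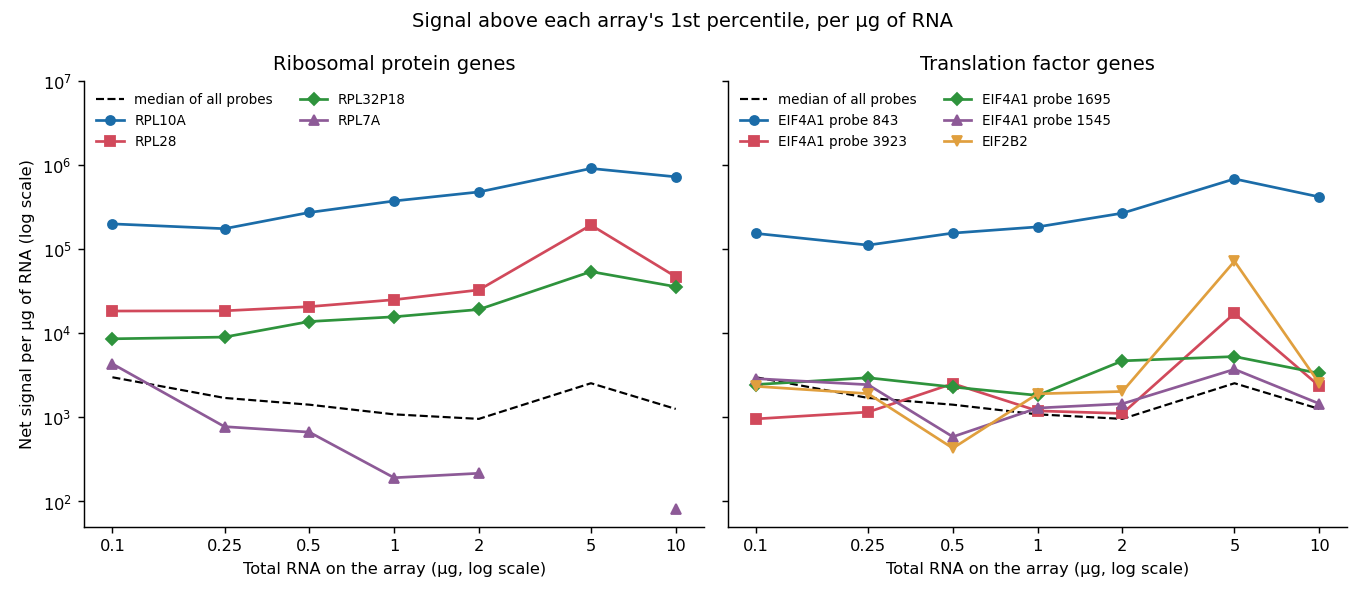
Net signal per µg of RNA (y axis, log scale), which is the signal minus the 1st percentile of its array divided by the amount, against total RNA in µg (x axis, log scale), 1 array at each amount. The dashed line is the median of all probes, and the point of RPL7A at 5 µg is missing because its net signal was below 0. A horizontal line would be signal in proportion to RNA, and RPL10A lies between 175376 and 912384.

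After this subtraction 8 of the 9 probes rose, and so did 93.7% of all probes. The slopes of the 4 bright probes now lay close together, at 1.36 ± 0.11 for RPL10A, 1.38 ± 0.15 for RPL28, 1.39 ± 0.12 for RPL32P18 and 1.34 ± 0.12 for EIF4A1 probe 843. The dimmer EIF4A1 probes had 1.35 ± 0.18 (3923, with its value at 0.1 µg set to the floor), 1.13 ± 0.12 (1695) and 0.99 ± 0.15 (1545). EIF2B2 had 1.44 ± 0.27, and 1.08 without the array of 5 µg. RPL7A did not pass, with a slope of 0.03 ± 0.16 (limma adjusted p = 0.869), a 95% interval from -0.33 to 0.38 and its value at 5 µg set to the floor. The median slope of all probes was 0.95.

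The net slopes were then tested against 1, that is against signal in proportion to RNA. None of the 9 probes passed above 1, against 0.722% of all probes, although the unadjusted 95% intervals of the bright probes lay above it. These ran from 1.11 to 1.61 for RPL10A (limma adjusted p = 0.0593), from 1.06 to 1.70 for RPL28 (0.0926), from 1.13 to 1.64 for RPL32P18 (0.0542) and from 1.07 to 1.61 for EIF4A1 probe 843 (0.0801). The count above 1 was 4, these same probes, with a variance trend in limma, with the lowest signal of each array as background, or with a floor of 300. Over all 5544 probes the count above 1 went from 40 to 549, 380 and 341 under those settings, in that order. RPL7A passed below 1 (limma adjusted p = 0.00815, against 9.83% of all probes below 1), but not without the array of 0.1 µg (0.0882). With only probes above 2 times the 1st percentile at 10 µg, which leaves RPL7A out, 0 of all probes passed above 1 and 0 below.

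**Figure D3:**
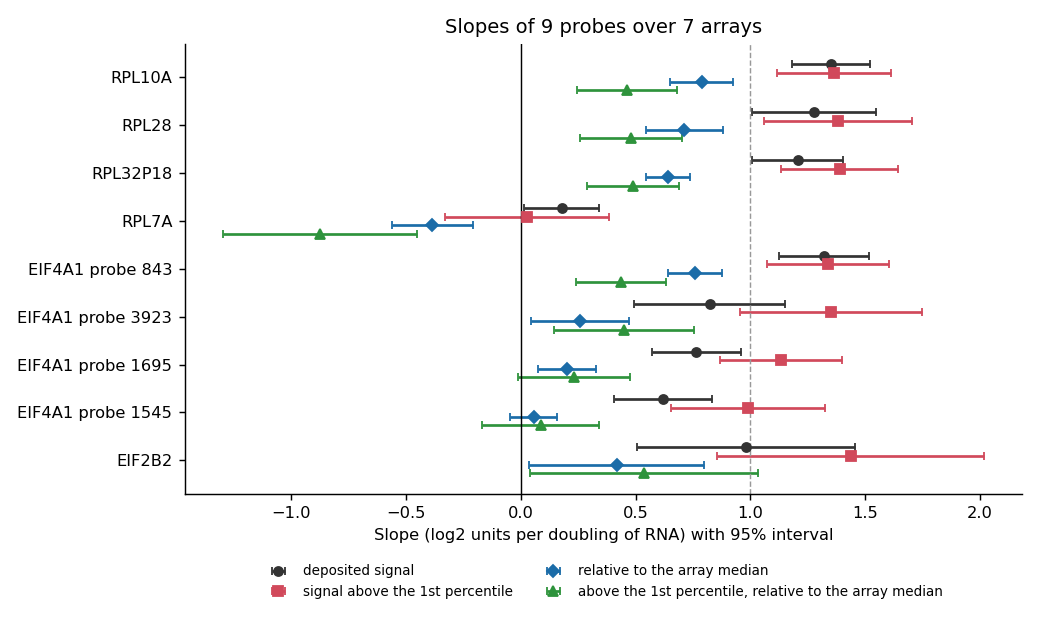
Slope over 7 arrays in log2 units per doubling of RNA (x axis) for each of the 9 probes (y axis), with limma's unadjusted 95% intervals as bars, for 4 treatments of the signal given by marker and colour. The solid vertical line is a slope of 0 and the dashed one a slope of 1. RPL7A is lowest in each treatment, and subtraction of the 1st percentile brings the slopes of RPL10A, RPL28, RPL32P18 and EIF4A1 probe 843 to between 1.34 and 1.39.

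Set against the median of the same array, 6 of the 9 probes rose and 1 fell, where 33.9% of all probes rose and 30.9% fell (1880 and 1713, or 856 and 3212 when centred on the 75th percentile). Relative to that median RPL10A read 13.1-fold at 0.1 µg and 450-fold at 10 µg, and RPL32P18 1.34-fold and 22.4-fold. RPL7A read 1.08-fold at 0.1 µg, 0.145-fold at 5 µg and 0.270-fold at 10 µg. The slopes of RPL10A, RPL28, RPL32P18 and EIF4A1 probe 843 lay between 0.64 and 0.79 with limma adjusted p of at most 1.44e-05, and that of RPL7A was -0.38 ± 0.08 (limma adjusted p = 0.00199). EIF4A1 probes 1695 (0.20 ± 0.06, limma adjusted p = 0.0107) and 3923 (0.26 ± 0.10, 0.0348) also rose. The call for probe 3923 was lost without the array of 0.1 µg (limma adjusted p = 0.0739), 0.25 µg (0.0700) or 0.5 µg (0.0538), and its slope was 0.13 without that of 5 µg. EIF4A1 probe 1545 had 0.06 ± 0.05 (limma adjusted p = 0.306). Array medians differed between the lower-numbered and the higher-numbered probes, at 25412 and 10250.5 on the array of 5 µg. With each of these sets centred on its own median the call for probe 1695 was lost (0.093, limma adjusted p = 0.164) and probe 1545 had -0.05 (0.294). In that centring 5 of the 9 probes rose and 1 fell, where 1811 and 1396 of all 5544 probes did.

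EIF2B2 did not pass in that comparison, although its slope of 0.42 ± 0.17 had a limma adjusted p of 0.0526. Without the array of 5 µg it was 0.16 (limma adjusted p = 0.0135), and without that of 10 µg 0.67 (0.0148). These directions depended on the scaling. With the 75th percentile RPL10A (0.56), RPL28 (0.49), RPL32P18 (0.42) and EIF4A1 probe 843 (0.53) still rose, RPL7A (-0.61) and EIF4A1 probe 1545 (-0.17) fell, while EIF4A1 probes 1695 (-0.02) and 3923 (0.03) no longer passed. Scaled on the median absolute deviation, RPL10A (-2.08) and EIF4A1 probe 843 (-1.82) fell. With quantile normalization or cyclic loess 0 of the 9 probes and 0 of all probes passed by limma, and 3 and 0 of the 9 had an unadjusted p under 0.05.

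With both corrections, the net signal relative to its array median, 5 of the 9 probes rose and 1 fell, against 19.4% and 11.0% of all probes (1078 and 612, or 335 and 1300 when centred on the 75th percentile, where 3 of the 9 rose and 1 fell). RPL10A (0.46 ± 0.10), RPL28 (0.48 ± 0.10), RPL32P18 (0.49 ± 0.09) and EIF4A1 probe 843 (0.44 ± 0.09) had limma adjusted p of at most 0.00937, and EIF4A1 probe 3923 had 0.45 ± 0.14 (0.0323). RPL7A fell (-0.87 ± 0.19, limma adjusted p = 0.00983, value at 5 µg set to the floor). All 6 calls were lost without the array of 0.1 µg, where the limma adjusted p lay between 0.0541 and 0.0636 for the 4 bright probes and was 0.0577 for RPL7A and 0.184 for probe 3923. EIF2B2 (0.54 ± 0.22, limma adjusted p = 0.0915) and EIF4A1 probes 1695 (0.23 ± 0.11, 0.126) and 1545 (0.09 ± 0.11, 0.571) did not pass.

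The array of 5 µg separated the members further. For each probe its median-centred log2 signal at 5 µg was compared with the line through the other 6 arrays. This comparison was chosen with earlier results of these data known, so its p-values are not those of a test set beforehand. EIF2B2 stood 3.80 ± 0.31 log2 units above that line (limma adjusted p = 1.32e-05), and 24 of the 5544 probes stood higher. EIF4A1 probe 3923 was 1.96 ± 0.27 above (0.000734) and RPL28 1.37 ± 0.29 above (0.00907). RPL7A was 1.46 log2 units below it (-1.46 ± 0.29, limma adjusted p = 0.00650), and 25 probes stood lower. Thus 3 of the 9 probes passed above the line and 1 below, against 9.97% and 4.94% of all probes (553 and 274, or 366 and 1394 when centred on the 75th percentile).

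The other 5 members did not pass at 5 µg. Their deviations ran from -0.37 ± 0.39 for RPL10A to 0.27 ± 0.28 for EIF4A1 probe 1545. RPL10A passed below the line without the array of 10 µg (-1.10, limma adjusted p = 0.0118). With quantile normalization or the median absolute deviation none of the 9 passed by limma, where 2 and 3 had an unadjusted p under 0.05. With cyclic loess 5 of the 9 had an unadjusted limma p under 0.05, and 852 of all probes passed above the line and 398 below. Each of the 4 calls was kept when any single array other than that of 5 µg was left out.

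**Figure D4:**
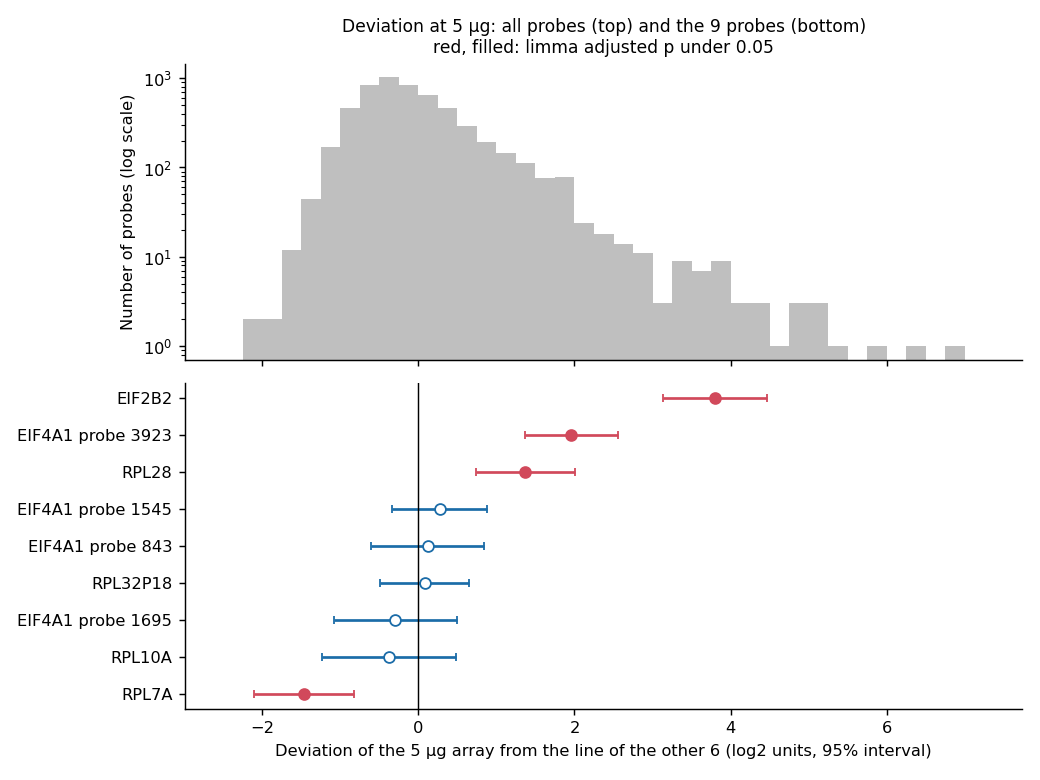
Deviation of the 5 µg array from the line through the other 6 arrays in log2 units (x axis), as a histogram of all probes with a log-scaled count (top) and for the 9 probes with limma's unadjusted 95% intervals (bottom). Filled red points passed an adjusted p of 0.05. EIF2B2, at 3.80, lies in the upper tail of the histogram and RPL7A, at -1.46, in the lower.

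Steps between successive arrays show where these differences arose. From 2 to 5 µg, an amount 2.5 times larger, the signal of EIF2B2 changed 58.7-fold, of EIF4A1 probe 3923 20.7-fold and of RPL28 14.4-fold, against a median of 3.54-fold over all probes. Only 24, 77 and 165 probes had a larger ratio than these. RPL7A gave 0.934-fold over that step and was 1 of 8 probes with a lower value at 5 than at 2 µg. From 5 to 10 µg EIF2B2 gave 0.0796-fold, EIF4A1 probe 3923 0.301-fold, RPL28 0.488-fold and EIF4A1 probe 1545 0.806-fold. Lower values at 10 than at 5 µg were seen in these 4 of the 9 members and in 43.5% of all probes.

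The step from 0.1 to 0.25 µg, an amount 2.5 times larger, changed the net signal 2.19-fold in RPL10A and 2.52-fold in RPL28. It changed it 2.62-fold in RPL32P18 and 1.815-fold in EIF4A1 probe 843. Between 0.25 and 2 µg the steps were steadier in these bright probes than in EIF2B2 and EIF4A1 probe 1545. From 0.25 to 0.5 µg, from 0.5 to 1 µg and from 1 to 2 µg the amount doubled each time, and the net signal of RPL10A changed 3.12-, 2.74- and 2.56-fold. That of RPL28 changed 2.24-, 2.42- and 2.61-fold, that of RPL32P18 3.06-, 2.28- and 2.44-fold, and that of EIF4A1 probe 843 2.78-, 2.37- and 2.91-fold. The net signals of EIF2B2 changed 0.449-, 8.87- and 2.13-fold over these steps, and those of EIF4A1 probe 1545 0.480-, 4.40- and 2.25-fold. At 0.5 µg these 2 probes read 1801 and 1880, against an array median of 2294 and a 1st percentile of 1586.

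The 4 probes of EIF4A1 were compared with each other by the slope of their log2 difference on log2 amount, in 6 pairs, a comparison chosen after the data were seen. Probes 843 and 3923 come from 1 clone accession, yet their signals were 4193860 and 27145 at 10 µg and 16735 and 1425 at 0.1 µg. Their log2 difference widened by 0.50 ± 0.14 per doubling (Pearson r = 0.849, exact two-sided permutation p = 0.0194, adjusted over 6 pairs 0.0389; Spearman rho = 0.893, exact p = 0.0123, adjusted 0.0246), and r was 0.596 without 0.1 and 10 µg. The net signals of this pair showed no such trend (slope -0.01 ± 0.17, r = -0.0313, exact permutation p = 0.946; rho = 0.250, exact p = 0.595). Probes 1545 and 1695, from the other accession, gave -0.15 ± 0.06 (r = -0.735, exact permutation p = 0.0639, adjusted 0.0958; rho = -0.750, exact p = 0.0663, adjusted 0.0994; r without 0.1 and 10 µg -0.453).

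Between the accessions, probe 843 gained on probe 1545 by 0.70 ± 0.05 per doubling (r = 0.985, exact permutation p = 0.000397, adjusted 0.00238; rho = 1, exact p = 0.000397, adjusted 0.00238; r = 0.969 without 0.1 and 10 µg). It gained on probe 1695 by 0.56 ± 0.06 (r = 0.976, exact permutation p = 0.00119, adjusted 0.00357; rho = 0.929, exact p = 0.00675, adjusted 0.0202; r = 0.963 without 0.1 and 10 µg). Probe 3923 did not differ in slope from probes 1545 and 1695 past the threshold (exact permutation p = 0.156 and 0.796 for r). In net signal 0 of the 6 pairs passed after adjustment, with the smallest adjusted p at 0.178 for r by the exact permutation test. The name EIF4A1 therefore stood for signals at median percentiles of 98.4, 72.1, 56.7 and 53.8, and the slope of each deposited signal was steeper in the brightest of them.

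The probes whose course over the 7 arrays was most like that of each member were found by the root mean square difference of log2 signals, each taken from its own mean. For RPL10A these were probes of DTL (0.0918 log2 units) and MYLK (0.0999), and for the brightest EIF4A1 probe those of C1orf35 (0.0886) and SEC24C (0.0897). For RPL32P18 they were MPP1 (0.0977) and ABCC5 (0.0980), and for RPL7A IGFBP1 (0.132) and RBM22 (0.140). RPL28 was nearest to EPHB4 (0.198) and LGMN (0.205), and EIF2B2 to BCL2L2 (0.194) and MAMLD1 (0.211). The median difference from all other genes' probes was between 1.08 and 1.73 for the 6 genes. The probes chosen in this way for EIF2B2 share its peak at 5 µg by that choice, with BCL2L2 at 6757, 500405 and 27264 at 2, 5 and 10 µg and MAMLD1 at 6210, 349882 and 32023.

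Other genes of translation were taken from lists of cytosolic ribosomal proteins, initiation, elongation and release factors, aminoacyl-tRNA synthetases, the mitochondrial ribosome and ribosome assembly, each gene by its brightest probe. Against the array median 18 of the 48 measured genes rose and 11 fell, with a median slope of 0.10, where 38.5% of 3011 genes rose, 26.6% fell and the median was 0.05. Without RPL7A, RPL10A, RPL28, EIF4A1 and EIF2B2, 15 of 43 rose and 10 fell, with a median of 0.09. These counts were 7 and 23 of the 48 when centred on the 75th percentile (median -0.13), where 521 and 1598 of the 3011 genes rose and fell (median -0.17). They were 0 and 5 when scaled on the median absolute deviation (3 and 224 of all genes). With each set of probe numbers centred apart they were 21 and 7 (1050 and 707 of all genes). With quantile normalization or cyclic loess they were 0 and 0 by limma, and also 0 and 0 over all genes. Direction moved with brightness: over the 7 arrays the 18 genes that rose had median percentiles from 58.5 to 99.5, and the 11 that fell from 4.79 to 30.7. At 10 µg the 18 read from 24830 to 7262286 and the 11 from 4194 to 9843. The 1st percentile of that array was 3550 and its median 16151.5, so the genes that fell were among its dim probes. The part of brightness in these directions was not tested. On the array of 5 µg 7 of the 48 stood above their line and 1 below, against 10.3% and 4.68% of all genes, and 5 and 0 of the 43. The 7 were RPL5, RPL28, EIF1, EIF2B2, ABCE1, CARS1 and DAP3, and the 1 below was RPL7A.

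Against the array median 6 of 10 ribosomal protein genes, with RPL7A, RPL10A and RPL28 among the 10, rose and 2 fell. Of all genes 38.5% rose and 26.6% fell. With the 75th percentile 2 of the 10 rose and 4 fell, where 521 and 1598 of the 3011 genes did. With the median absolute deviation 0 rose and 1 fell, where 3 and 224 of all genes did. Besides RPL10A and RPL28, RPS14 (0.35 ± 0.05, limma adjusted p = 0.000238) and RPS6, the small-subunit protein phosphorylated by S6 kinases (0.33 ± 0.04, 9.45e-05), rose. RPL5, which binds 5S ribosomal RNA (0.24 ± 0.08, limma adjusted p = 0.0171), and RPL36 (0.16 ± 0.06, 0.0309) also rose. RPL31 fell with RPL7A (-0.32 ± 0.05, limma adjusted p = 0.000490), reading 1794 at 0.1 µg and 4194 at 10 µg. The RPL31 probe is numbered just after that of RPL7A. RPL10 (0.03 ± 0.06) and RPL22 (-0.12 ± 0.06) did not pass. With the net signal relative to its median, 4 of the 10 rose (RPL10A, RPL28, RPS6 and RPS14) and 2 fell (RPL7A and RPL31), against 21.8% and 8.90% of all genes. Without the array of 0.1 µg 0 of the 10 rose and 0 fell by limma (5 had an unadjusted p under 0.05), where 47 and 76 of the 3011 genes did, and without that of 0.25 µg 2 rose and 2 fell.

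Against the array median 3 of 10 initiation factor genes rose and 2 fell, no more than the 38.5% and 26.6% of all genes. With the 75th percentile 1 of the 10 rose and 5 fell, where 521 and 1598 of 3011 genes did. With the median absolute deviation the counts were 0 and 1 (3 and 224 of all genes). EIF4A1 was steepest, and the lowest were EIF1AY, a form of the scanning factor eIF1A (-0.32 ± 0.05, limma adjusted p = 0.000249), and EIF3L, an eIF3 subunit (-0.15 ± 0.05, 0.0152). Of the other eIF2B subunits measured, EIF2B5, the catalytic one, rose (0.19 ± 0.05, limma adjusted p = 0.0120) and EIF2B1 did not pass (-0.06 ± 0.04). Neither passed at 5 µg, where EIF2B5 had a deviation of -0.67 and EIF2B1 of -0.39, beside the 3.80 of EIF2B2. EIF2AK2, a kinase that phosphorylates eIF2, fell (-0.27 ± 0.05, limma adjusted p = 0.00156) and was the 1 measured gene of its list.

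Of 4 elongation and release factors 1 rose, ETF1, the protein that recognises stop codons (0.17 ± 0.05, limma adjusted p = 0.0120). ABCE1, which recycles ribosomes, had 0.20 ± 0.08 (0.0513), and EEF2 and GSPT2 had -0.00 each. Of 5 aminoacyl-tRNA synthetases 2 rose, HARS1 (0.30 ± 0.05, limma adjusted p = 0.000384) and KARS1 (0.17 ± 0.05, 0.0125), and VARS1 fell (-0.35 ± 0.07, 0.00111), while EPRS1 had 0.07 ± 0.05. These 3 rises and 1 fall among 9 genes stand beside the 38.5% and 26.6% of all genes. With the 75th percentile 0 of the 9 rose and 4 fell, where 521 and 1598 of 3011 genes did.

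Of 14 genes of mitochondrial translation 5 rose and 4 fell, near the 38.5% and 26.6% of all genes. With the 75th percentile 4 of the 14 rose and 6 fell, where 521 and 1598 of 3011 genes did. With the median absolute deviation the counts were 0 and 3 (3 and 224 of all genes). With each set of probe numbers centred apart they were 7 and 2 (1050 and 707 of all genes). The steepest were TUFM, the mitochondrial elongation factor Tu (0.79 ± 0.07, limma adjusted p = 2.10e-06), and MTIF2, a mitochondrial initiation factor (0.70 ± 0.06, 2.97e-06), with median percentiles of 99.1 and 98.3. The lowest were the ribosomal proteins MRPL23 (-0.27 ± 0.06, limma adjusted p = 0.00253) and MRPL55 (-0.21 ± 0.05, 0.00608). Of 4 genes of ribosome assembly 1 rose and 1 fell, again beside 38.5% and 26.6% of all genes. RRS1 rose (0.24 ± 0.07, limma adjusted p = 0.0108), UBTF, a factor of ribosomal RNA transcription, fell (-0.21 ± 0.06, 0.0147), and NOP16 (0.05) and PES1 (0.00) did not pass. With the 75th percentile 0 of the 4 rose and 3 fell, beside the same 521 and 1598 of 3011 genes.

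**Figure D5:**
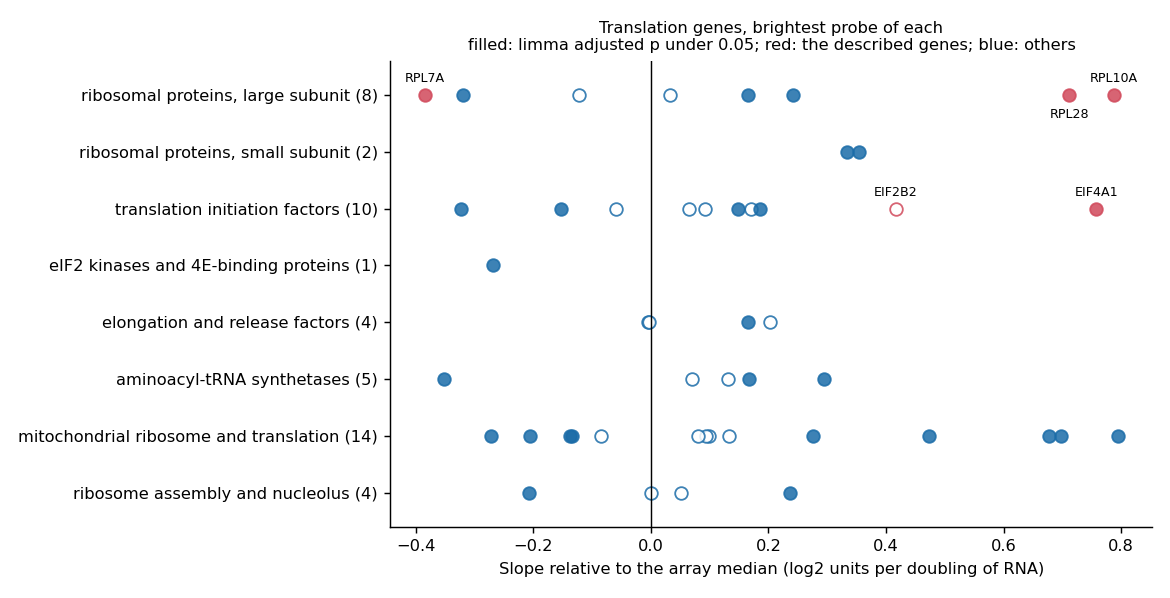
Slope relative to the array median in log2 units per doubling of RNA (x axis) for the brightest probe of each of 48 measured translation genes, by list with the number measured (y axis). Filled points passed a limma adjusted p of 0.05, and red points are the genes described first. The large-subunit proteins span the range from RPL7A at -0.38 to RPL10A at 0.79, and these directions do not hold with quantile normalization or cyclic loess, where none passed.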

How the data were processed

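Signals of 7 membrane arrays were analysed, 1 at each of 7 amounts of RNA. The authors deposited 1 linear intensity per array for each of 5544 probes. The scanner, background correction and any scaling are not given in the sources used here. Genes were named from the platform's annotation, with 3346 probes of 1 symbol, 95 of several and 2103 of none. The members and lists were chosen with earlier results of these data known. Rule for names: all member probes, every measured ribosomal protein gene, the 2 highest and 2 lowest slopes of each list, the 2 probes most like each member, and ALB, APOB and TTR; EIF2B1 and EIF2B5 were added after their values were seen.

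Slopes of log2 signal on log2 amount were fitted over all probes with limma 3.58.1 in R 4.3.3 (lmFit, eBayes, Benjamini-Hochberg at 0.05), without scaling, after centring on the array median, and after subtraction of the 1st percentile with net signals under 100 set to 100. Between 1.24% and 10.0% of probes on an array were under that floor. A further term for the array of 5 µg, chosen with earlier results of these data known, gave its deviation from the line. Exact permutation used all 5040 pairings, whose smallest p for r is 0.000198, with scipy 1.17.1 in Python 3.11.15. Fits were tested on simulated data. Alternatives were other centrings, backgrounds, floors and offsets, a variance trend, a filter on dim probes and leaving out each array. That filter kept the 4371 probes above 2 times the 1st percentile at 10 µg. Separate centring of probes numbered up to 2772 and of those above was added after the data were seen, as were the comparisons of EIF4A1 probes. No sequences of the probes were used here.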

Additional observations from a re-analysis of the deposited data

How the results depend on the processing

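No paired analysis was possible because each amount has 1 array and the labels number no replicates. Counts are of the 9 probes by limma adjusted p. Unscaled, 9 rose, and 8 to 9 when single arrays were left out. RPL7A was lost there, as with an offset of 1000 (8), and has no value under the filter on dim probes (8). The net signal gave 8 rises under every alternative run.

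Relative to the array median, 6 rises became 0 with the median absolute deviation, quantile normalization or cyclic loess, and 1 fall became 2, 0 and 0, or 2 with the 75th percentile and 0 with the dim filter. RPL10A turned to -2.08, -0.016 and -0.051 under those 3 scalings, and EIF4A1 probe 843 to -1.82, -0.023 and -0.039. With the median absolute deviation RPL28 turned to -0.42 and RPL32P18 to -0.10. With the 75th percentile EIF4A1 probe 1545 turned to -0.17 and probe 1695 to -0.023, the latter to -0.0032 with loess. Among all probes 1880 rises and 1713 falls became 856 and 3212 (75th percentile), 4 and 389 (median absolute deviation), and 0 and 0 (quantile, loess), where 804 and 178 had an unadjusted p under 0.05. With the dim filter there were 1858 rises and 618 falls.

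Against a slope of 1, 0 probes above became 4 with the variance trend, the lowest signal as background or a floor of 300, and 2 with values under the floor left out, which drops probes on fewer than 4 arrays. The 1 below ranged from 0 to 1 without single arrays and was 0 with the dim filter. Over all probes 40 above became 549, 380, 341 and 100 under those settings and 0 to 28 without single arrays, and 545 below became 46 to 806, or 1060 (lowest signal) and 1417 (floor of 300). With the dim filter the all-probe counts were 0 above and 0 below. Net relative to the median, 5 rises ranged from 0 to 5 without single arrays and were 3 with the 75th percentile, and 1 fall ranged from 0 to 1 and was 0 with the dim filter. All-probe rises and falls of 1078 and 612 became 81 and 175 without the array of 0.1 µg, and 1499 fell with a floor of 300. With the dim filter 1167 rose and 81 fell.

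At 5 µg, 3 probes above became 0 with the median absolute deviation, which turned RPL28 to -0.84, or with quantile normalization. The 1 below ranged from 1 to 2 without single arrays and was 0 with those scalings and the dim filter. All-probe counts of 553 and 274 became 0 and 0, and 26 and 1, and the 274 ranged from 115 to 1183 without single arrays. With cyclic loess they became 852 and 398, and with the dim filter 532 and 322. That deviation could not be fitted without the array of 5 µg. The causes were not tested.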

Other observations

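Numbers next to each other on the array were inspected after the data were seen. Both neighbours of RPL7A were dim as well, at 1498 (just before) and 1794 (just after, RPL31) at 0.1 µg. They read 4974 and 5142 at 5 µg and 3395 and 4194 at 10 µg, where the 1st percentile was 3550. Neither passed for a deviation at 5 µg (limma adjusted p = 0.5805 and 0.4914), unlike RPL7A. The probes numbered just before and after EIF2B2 read 24574 and 34398 at 5 µg and 31088 and 39332 at 10 µg, and neither passed for a deviation at 5 µg (limma adjusted p = 0.309 and 0.893). The probe just after RPL28, which carries several symbols, read 36002 at 5 µg and 18762 at 10 µg and passed above its line like RPL28 (1.03, limma adjusted p = 0.0294), while the probe just before it did not (0.09, 0.899). The probe just after EIF4A1 probe 843, named HNRNPD, read 137886 at 5 µg and 49532 at 10 µg, a deviation of 1.69 (limma adjusted p = 0.00398), while that EIF4A1 probe had 0.12 (0.824).

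EIF4A1 probes 843 and 3923 each follow a GAPDH probe of a common clone accession, 3080 numbers apart. The GAPDH probe before 843 read 12442 at 0.1 µg and 3491303 at 10 µg, and the one before 3923 read 1660 and 25608. Layout of the membrane and the naming of these probes were not tested.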
